A study of Mus musculus with 9 samples.

Results

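The genes described here are 32 mouse genes of cholesterol and fatty acid synthesis together with the sterol regulatory element-binding protein (SREBP) system that controls them. They were taken by symbol from the authors' full gene tables, and all 32 were found among the 22322 genes listed. All 32 also had enough counts to be tested, out of 13158 genes tested. They fall into 5 roles: 6 regulators, 6 genes of the mevalonate and isoprenoid steps, 11 genes of the steps from squalene to cholesterol, 4 genes of fatty acid synthesis, and 5 genes of fatty acid desaturation and elongation.

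RNA-seq was made from R1 cells, an established mouse embryonic stem cell line, in 3 groups of 3 libraries: sh-Pfkp (labelled Pfkp knockdown), sh-Lin41 (labelled Lin41 knockdown) and sh-ctrl (labelled WT, with a control hairpin). Cells of all 3 groups had been kept in suspension with no LIF, the cytokine that sustains mouse stem cells, over 6 days to form embryoid bodies. Pfkp encodes the platelet isoform of the glycolytic enzyme phosphofructokinase. Lin41 is the RNA-binding protein of the gene Trim71, and the series title names Pfkp as its protein kinase. The labels name 1 hairpin against each gene and no rescue, so an effect of a hairpin or its cell line cannot be told apart from that of the knockdown. Whether the 3 libraries in each group stem from different cultures is not stated, and the p-values thus rest on library-to-library spread, which may be technical. As RNA came from whole embryoid bodies, fewer cells of a type and less RNA per cell cannot be told apart.

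Library totals lay between 15495194 and 20607683 counts. Levels are given as CPM, each library's counts put on a common total, scaled by the trimmed mean of M-values, which corrects for composition. The targeted genes followed their labels, with Pfkp at -1.27 (log2 fold change) in sh-Pfkp and Trim71 at -0.75 in sh-Lin41, both against sh-ctrl. In the other knockdown, Trim71 stood at 0.39 in sh-Pfkp and Pfkp at -0.12 in sh-Lin41. All 10 pluripotent cell markers examined were abundant, with a summed level of 4733 to 4806 CPM in sh-Pfkp, 6033 to 6066 CPM in sh-Lin41 and 5184 to 5268 CPM in sh-ctrl. Of 14 markers of extraembryonic endoderm, a lipid-exporting tissue of the embryo, 10 stayed under 1 CPM in all 9 libraries, and 3 of these (Afp, Apoa4 and Fgb) had no counts. The summed level of these 14 was 7.95 to 9.25 CPM in sh-Pfkp, 10.5 to 11.2 CPM in sh-Lin41 and 7.53 to 8.3 CPM in sh-ctrl. Of the 5 with enough counts to test, Hnf4a was higher than in sh-ctrl in both knockdowns at an edgeR adjusted p under 0.05. Its log2 fold change was 0.87 (SE 0.209) in sh-Pfkp and 1.2 (SE 0.2) in sh-Lin41. Gata4 was lower in sh-Pfkp (-0.52, SE 0.214), with overlapping groups, and no other difference among the 5 passed.

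SREBPs are transcription factors made as membrane proteins of the endoplasmic reticulum. When membrane sterol is low, SCAP escorts them to the Golgi, where proteases release the active part, whereas INSIG proteins hold SCAP back when sterol is plentiful. SREBP-2, from Srebf2, acts mainly on genes of cholesterol synthesis, and SREBP-1, from Srebf1, mainly on genes of fatty acid synthesis. Both genes and Insig1 are themselves SREBP targets. SREBPs bind sterol regulatory elements near start sites, usually with NF-Y, which reads the CCAAT box, and Sp1, which reads the GC box.

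Promoter windows from RefSeq (GRCm38.p6), running from 250 bases before to 50 bases after a start site, were matched by symbol to 25 of the 32 genes. No window was used here for Stard4, Fdps, Fdft1, Sqle, Scd1, Scd2 and Fads1. Both strands were searched for an element core (TCACNCCA, N being any base), the CCAAT box (CCAAT) and the GC box (GGGCGG). The last letters of the core can begin a CCAAT box. The core was present for 3 of the 25 genes (12%), against 4.46% of the 10409 tested genes with a window. The CCAAT box was present for 21 (84%), against 43.6% of those genes, and the GC box also for 21 (84%), against 69.6%. Over all 27025 genes with a window the shares were 4.97%, 41.1% and 38.2%. Acaca, Elovl6, Fads2 and Scap had no CCAAT box in their windows. These matches describe letters only and show no binding.

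The 3 promoters that held the element core are printed because they place it beside CCAAT boxes in genes whose changes are described below. Each runs 5′ to 3′ on the strand of its gene, ends upstream of the start site, and has in capitals the element core and the CCAAT boxes (ATTGG where a box lies on the other strand). Hmgcs1 covers chr13:119690104-119690320 on the plus strand, Msmo1 covers chr8:64733619-64733765 on the minus strand, and Srebf2 covers chr15:82147097-82147148 on the plus strand.
Hmgcs1: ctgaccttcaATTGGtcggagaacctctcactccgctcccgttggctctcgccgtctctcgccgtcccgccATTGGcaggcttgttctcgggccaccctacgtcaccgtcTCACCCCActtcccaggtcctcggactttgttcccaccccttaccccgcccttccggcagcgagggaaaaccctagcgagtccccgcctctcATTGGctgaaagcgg
Msmo1: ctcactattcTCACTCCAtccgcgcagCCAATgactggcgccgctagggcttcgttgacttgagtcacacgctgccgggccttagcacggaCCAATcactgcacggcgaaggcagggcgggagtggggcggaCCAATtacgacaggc
Srebf2: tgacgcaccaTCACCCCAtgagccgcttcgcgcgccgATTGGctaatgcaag

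Most of the 32 genes were lower in sh-Pfkp. In sh-Pfkp against sh-ctrl, 25 fell, 2 rose (Scap and Fasn) and 5 were not called, at an edgeR adjusted p under 0.05. Of all genes tested in this comparison, 28.3% were called lower, 28.3% higher and 56.6% in either direction. The median log2 fold change was -0.33 over the 32 genes and -0.005 over all genes tested. As the 32 genes were chosen with earlier results of these data known, their contrast with all genes is a description and not a test. The summed level of the 32 genes was 3629 to 3687 CPM in sh-Pfkp, against 4438 to 4490.3 CPM in sh-ctrl, so the mean of the sums was 82.2% of control. Such a sum gives most weight to abundant genes, such as Scd2, which averaged 473 CPM in sh-Pfkp and 852 CPM in sh-ctrl.

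Most were also lower in sh-Lin41. In sh-Lin41 against sh-ctrl, 22 fell, 2 rose (Tm7sf2 and Ebp) and 8 were not called, where 27.3% of all genes tested were called lower, 26.9% higher and 54.3% in either direction. The median log2 fold change was -0.30 over the 32 genes and 0.0043 over all genes tested. The summed level was 3528 to 3545 CPM in sh-Lin41, against the same 4438 to 4490.3 CPM in sh-ctrl, or 79.3% of control. The changes were modest in size, since none of the 32 reached a 2-fold difference in either knockdown. Both comparisons use the same control libraries.

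**Figure D1:**
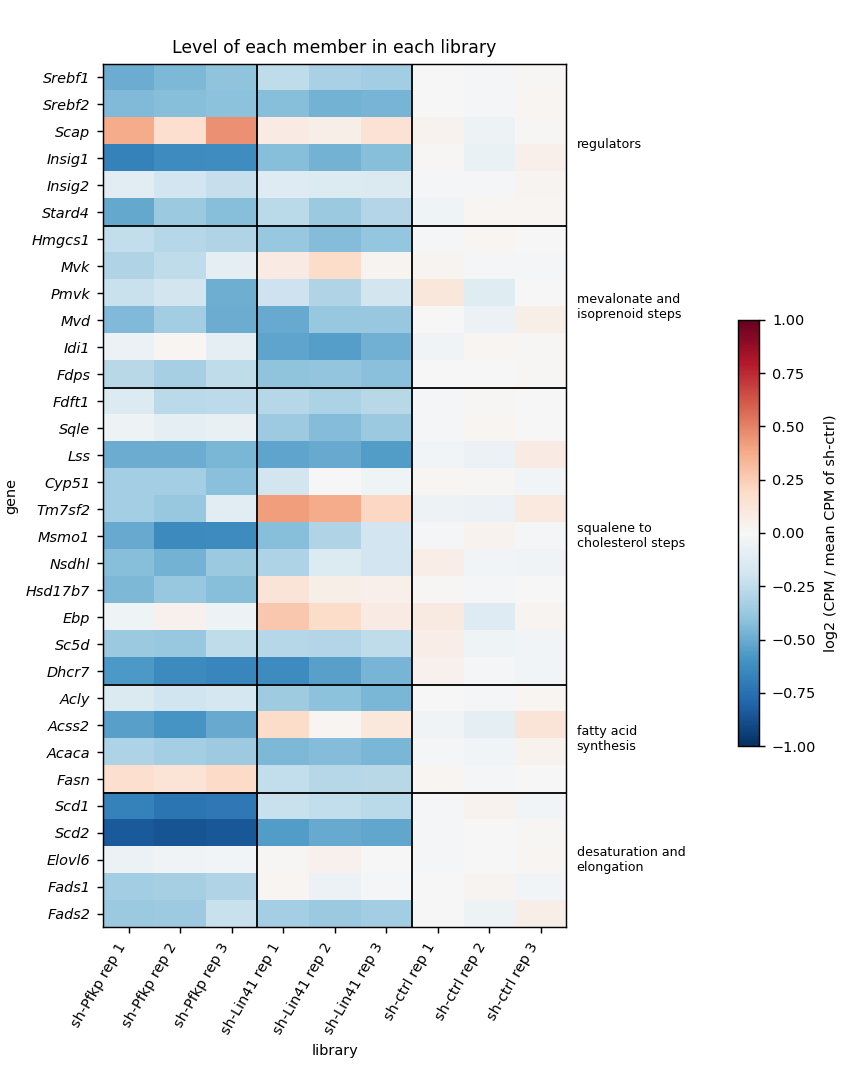
Level of each of the 32 genes (rows, grouped by role) in each of the 9 libraries (columns), as the log2 ratio of its CPM to the mean CPM of the 3 sh-ctrl libraries. Blue is lower and red is higher than control; Scd2 and Dhcr7 are blue in all 6 knockdown libraries, whereas Fasn is red in sh-Pfkp and blue in sh-Lin41.

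Among the regulators, the genes of both SREBPs were lower in both knockdowns. Srebf2 had 184, 186 and 188 CPM in sh-Pfkp, 186, 181 and 181 CPM in sh-Lin41 and 249, 247 and 253 CPM in sh-ctrl. Every knockdown library lay below every control library. Its log2 fold change was -0.43 (SE 0.0243, adjusted p = 6.66e-16) in sh-Pfkp and -0.45 (SE 0.0242, adjusted p = 1.24e-16) in sh-Lin41 by edgeR's quasi-likelihood test. Srebf1 had 42, 43.3 and 44.8 CPM in sh-Pfkp, 49.8, 47.4 and 46.5 CPM in sh-Lin41 and 59.5, 58.3 and 59.8 CPM in sh-ctrl. The 3 groups did not overlap, with sh-Pfkp lowest, and it fell by 0.45 (SE 0.0442) in sh-Pfkp and by 0.31 (SE 0.043) in sh-Lin41 on the log2 scale. Reads of Srebf1 may include some from Rai1, whose exons overlap it on the opposite strand in GENCODE M21, as the strand setting of the counting is not given. Rai1 averaged 27.7 CPM over the 9 libraries.

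Insig1, whose protein holds SCAP back when sterol is plentiful and which is also a direct SREBP target, showed the largest fall of the regulators in sh-Pfkp. It had 47.4, 48.9 and 49.3 CPM in sh-Pfkp, 56.2, 54.6 and 56.3 CPM in sh-Lin41 and 76.1, 72.4 and 78.6 CPM in sh-ctrl, and the 3 groups did not overlap. The log2 fold change was -0.64 (SE 0.0415, adjusted p = 1.44e-14) in sh-Pfkp and -0.44 (SE 0.0402, adjusted p = 4.49e-11) in sh-Lin41. Its paralog Insig2, which in liver is driven by other signals, moved less, with 20.7, 19.5 and 19 CPM in sh-Pfkp, 20.4, 20.2 and 20.2 CPM in sh-Lin41 and 22.1, 22.1 and 22.6 CPM in sh-ctrl. The change in sh-Pfkp was -0.17 (SE 0.0662, edgeR adjusted p = 0.0269), and this call was lost without sh-Pfkp replicate 2 (0.074), sh-Pfkp replicate 3 (0.105), sh-ctrl replicate 1 (0.0501) or sh-ctrl replicate 3 (0.0875), with DESeq2 (0.0934), with no count filter (0.0553) and on log2(FPKM + 1) (0.86). In sh-Lin41 it was -0.14 (adjusted p = 0.0768), which is not a call.

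Scap, the escort of the SREBPs, went the other way in sh-Pfkp. It had 57.8, 49.99 and 61.3 CPM in sh-Pfkp, 47.2, 46.4 and 49.2 CPM in sh-Lin41 and 45.7, 43.1 and 45.1 CPM in sh-ctrl. All 3 sh-Pfkp libraries lay above the control libraries, replicate 2 less so than the others, and the log2 fold change was 0.33 (SE 0.0546, adjusted p = 4.82e-06). In sh-Lin41 the difference was 0.091 (SE 0.0555, 95% interval -0.045 to 0.23) and not called, although on log2(FPKM + 1) with limma-trend it was 0.20 (adjusted p = 0.0112). Stard4, which carries sterol between membranes, fell in both, at -0.43 (SE 0.0479) in sh-Pfkp and -0.31 (SE 0.0468) in sh-Lin41. Of the 6 regulators, 5 fell and 1 rose in sh-Pfkp, and 4 fell and none rose in sh-Lin41.

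Genes of the mevalonate and isoprenoid steps, which build isoprene units from acetyl-CoA, fell in 5 of 6 cases in each knockdown. Hmgcs1, the cytosolic enzyme that makes HMG-CoA and whose promoter is printed above, had 182, 178 and 176 CPM in sh-Pfkp, 166, 159.9 and 165 CPM in sh-Lin41 and 213, 219 and 216 CPM in sh-ctrl. The groups did not overlap and sh-Lin41 was lowest, with changes of -0.27 (SE 0.0257) in sh-Pfkp and -0.40 (SE 0.0258) in sh-Lin41. Fdps, which makes farnesyl diphosphate, had 52.6, 50.7 and 53.5 CPM in sh-Pfkp, 48.4, 48.7 and 47.8 CPM in sh-Lin41 and 63.6, 63.6 and 64.4 CPM in sh-ctrl. It fell by 0.29 (SE 0.0405) in sh-Pfkp and by 0.40 (SE 0.0407) in sh-Lin41.

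Idi1, the isomerase of isopentenyl diphosphate, was lower in sh-Lin41. It had 155, 164 and 151 CPM in sh-Pfkp, 112, 109.9 and 116 CPM in sh-Lin41 and 158, 163 and 163 CPM in sh-ctrl. The sh-Lin41 libraries lay far below the rest, while those of sh-Pfkp overlapped control. The log2 fold change was -0.042 (95% interval -0.12 to 0.032, edgeR adjusted p = 0.245) in sh-Pfkp and -0.52 (SE 0.0315, adjusted p = 2.61e-15) in sh-Lin41. With scaling by library totals only, the sh-Pfkp value became -0.09 and was called (adjusted p = 0.012).

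The decarboxylase gene Mvd, between these steps, fell by nearly the same amount in both, -0.43 (SE 0.053) in sh-Pfkp and -0.42 (SE 0.0525) in sh-Lin41. The phosphomevalonate kinase gene Pmvk fell too, -0.29 (SE 0.0787, adjusted p = 0.00237) in sh-Pfkp and -0.23 (SE 0.0776, adjusted p = 0.0121) in sh-Lin41 with edgeR, the second of which was lost without sh-Lin41 replicate 2 (adjusted p = 0.0646) or sh-ctrl replicate 1 (0.0918) and on log2(FPKM + 1) (0.0509). The mevalonate kinase gene Mvk fell in sh-Pfkp, -0.22 (SE 0.0768, adjusted p = 0.0166), a call lost without sh-Pfkp replicate 1 (0.092), sh-Pfkp replicate 2 (0.0603) or sh-ctrl replicate 1 (0.0559) and with DESeq2 (0.055). In sh-Lin41 Mvk stood at 0.10 (SE 0.0736), not called.

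Of the 11 genes from squalene to cholesterol, 8 fell and none rose in sh-Pfkp, and 7 fell and 2 rose in sh-Lin41. Dhcr7, a reductase of the final steps, had 38.1, 36.5 and 36.1 CPM in sh-Pfkp, 36.8, 39 and 41.1 CPM in sh-Lin41 and 58.5, 56.3 and 55.6 CPM in sh-ctrl. No knockdown library reached the control range, and the changes were -0.62 (SE 0.0481, adjusted p = 1.31e-12) in sh-Pfkp and -0.55 (SE 0.0472, adjusted p = 1.61e-11) in sh-Lin41 with edgeR. Msmo1, an oxidase that removes methyl groups from the sterol ring, had 55.7, 50.6 and 50.9 CPM in sh-Pfkp, 58.7, 64 and 69.1 CPM in sh-Lin41 and 78.1, 80.7 and 77.5 CPM in sh-ctrl. The sh-Pfkp libraries were lowest, those of sh-Lin41 intermediate and more spread, and control highest, at -0.59 (SE 0.0481) in sh-Pfkp and -0.30 (SE 0.0462) in sh-Lin41. Its promoter, printed above, holds the element core upstream of 3 CCAAT boxes.

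Sqle, the squalene epoxidase and a rate-limiting enzyme of the pathway, had 89.5, 86.6 and 87.7 CPM in sh-Pfkp, 72, 68.5 and 71.6 CPM in sh-Lin41 and 91.5, 93.7 and 92.1 CPM in sh-ctrl. All sh-Lin41 libraries lay well below control, whereas those of sh-Pfkp lay just below it. The log2 fold change was -0.072 (95% interval -0.16 to 0.011, edgeR adjusted p = 0.0717) in sh-Pfkp and -0.39 (SE 0.0351, adjusted p = 4.62e-11) in sh-Lin41. In sh-Pfkp it was called lower with library totals only (-0.12, adjusted p = 0.00367) and on log2(FPKM + 1) (-0.12, adjusted p = 0.0103).

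The lanosterol synthase gene Lss fell by 0.49 in sh-Pfkp and 0.53 in sh-Lin41 on the log2 scale, and the squalene synthase gene Fdft1 by 0.22 in sh-Pfkp and 0.29 in sh-Lin41. The desaturase gene Sc5d fell by 0.34 in sh-Pfkp and 0.28 in sh-Lin41. The dehydrogenase gene Nsdhl followed, at -0.43 (SE 0.0607) in sh-Pfkp and -0.21 (SE 0.0587) in sh-Lin41. The lanosterol demethylase gene Cyp51 and the ketosteroid reductase gene Hsd17b7 were lower in sh-Pfkp than in both other groups. Cyp51 averaged 68.4 ± 2.24 CPM in sh-Pfkp, against 83.7 ± 5.51 CPM in sh-Lin41 and 88.2 ± 1.56 CPM in sh-ctrl (SD, n = 3 each). Hsd17b7 averaged 13.2 ± 0.323 CPM in sh-Pfkp, 18.6 ± 0.583 CPM in sh-Lin41 and 17.6 ± 0.148 CPM in sh-ctrl. In sh-Lin41 the changes were -0.075 for Cyp51 (edgeR adjusted p = 0.117, and 0.0301 without sh-Lin41 replicate 2, which is a call) and 0.079 for Hsd17b7 (adjusted p = 0.373). Exons of Cyp51 and Fdft1 overlap those of Akap9 and Ctsb on the opposite strand, and those of Tm7sf2 overlap Vps51 on its own strand, so their counts may include reads of these neighbours. As means of the 9 libraries, Akap9 had 59.4 CPM, Ctsb had 84.1 CPM and Vps51 had 11.4 CPM.

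The sterol reductase gene Tm7sf2 had 3.91 ± 0.392 CPM in sh-Pfkp, 5.97 ± 0.459 CPM in sh-Lin41 and 4.73 ± 0.298 CPM in sh-ctrl (SD, n = 3 each) and at least 71 counts in every library. It rose in sh-Lin41, 0.33 (SE 0.135, adjusted p = 0.0358), but not by DESeq2 (0.107), with no count filter (0.0509), or without sh-Lin41 replicate 1 (0.115), sh-Lin41 replicate 2 (0.0877), sh-ctrl replicate 1 (0.0993) or sh-ctrl replicate 2 (0.0947). In sh-Pfkp it stood at -0.28 (95% interval -0.64 to 0.076), not called. The sterol isomerase gene Ebp rose in sh-Lin41, 0.18 (SE 0.0602, adjusted p = 0.0121), with overlapping groups, and lost that call without sh-Lin41 replicate 1 (0.0894) or sh-ctrl replicate 2 (0.112). In sh-Pfkp Ebp stood at -0.02 (95% interval -0.17 to 0.13).

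**Figure D2:**
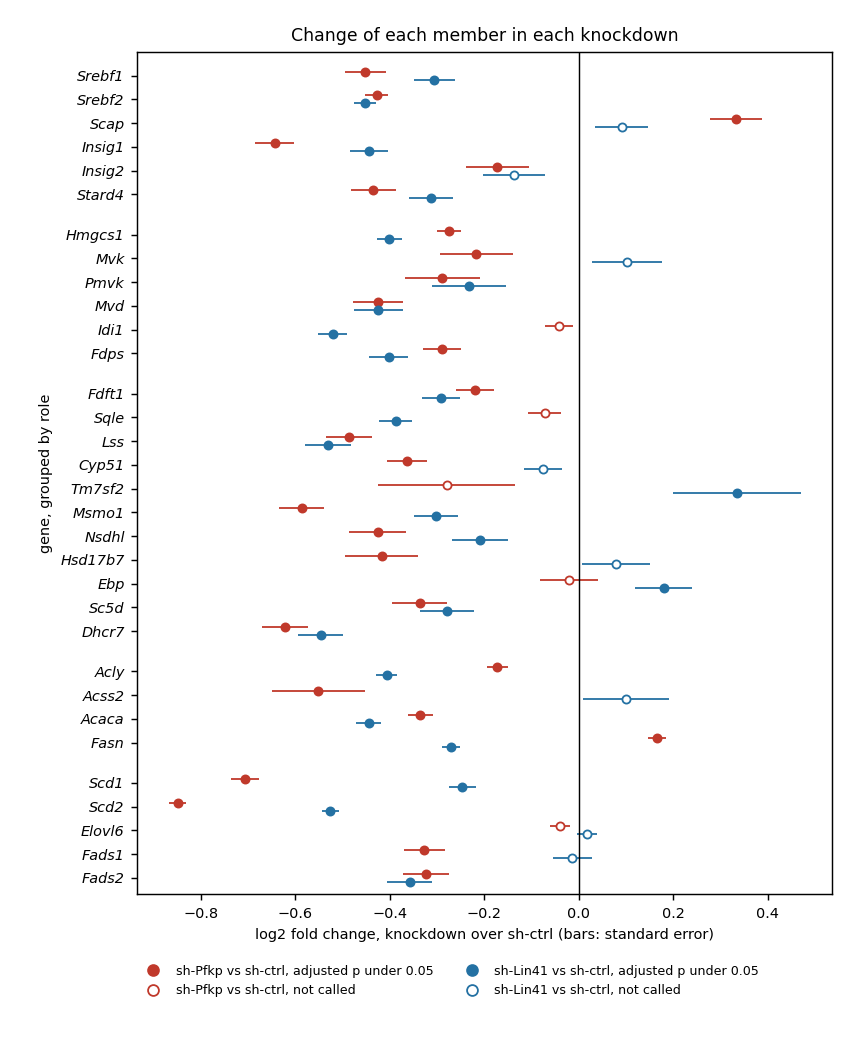
Log2 fold change of each gene in sh-Pfkp (red) and sh-Lin41 (blue) over sh-ctrl, with its standard error (n = 3 libraries per group); filled points had an edgeR adjusted p under 0.05. Most filled points lie left of 0, and Scap and Fasn in sh-Pfkp and Tm7sf2 and Ebp in sh-Lin41 are the filled points to its right.

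In fatty acid synthesis, 3 of 4 genes fell in each knockdown, and the exception in sh-Pfkp was Fasn, which rose. Fasn, the fatty acid synthase that assembles palmitate, had 759, 739 and 769 CPM in sh-Pfkp, 567, 554 and 555 CPM in sh-Lin41 and 682, 669 and 671 CPM in sh-ctrl. The sh-Pfkp libraries lay above and the sh-Lin41 libraries below all control libraries. Fasn rose in sh-Pfkp, 0.17 (SE 0.0184, adjusted p = 3.94e-09), and fell in sh-Lin41, -0.27 (SE 0.0186, adjusted p = 7.29e-14). Acly, which makes cytosolic acetyl-CoA from citrate, had 498, 478 and 486 CPM in sh-Pfkp, 428, 413 and 401 CPM in sh-Lin41 and 549.5, 542 and 555 CPM in sh-ctrl. It fell in both, -0.17 (SE 0.0216) in sh-Pfkp and -0.41 (SE 0.0217) in sh-Lin41.

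Acaca, the acetyl-CoA carboxylase that makes malonyl-CoA, had 160.0, 157 and 154 CPM in sh-Pfkp, 145, 147 and 145 CPM in sh-Lin41 and 197, 194 and 203 CPM in sh-ctrl. Both knockdowns lay below control, at -0.34 (SE 0.0265) in sh-Pfkp and -0.44 (SE 0.0266) in sh-Lin41. Acss2, which makes acetyl-CoA from acetate, averaged 8.52 ± 0.265 CPM in sh-Pfkp, 13.4 ± 0.785 CPM in sh-Lin41 and 12.4 ± 1.01 CPM in sh-ctrl (SD, n = 3 each). It fell in sh-Pfkp, -0.55 (SE 0.0982, adjusted p = 1.68e-05), and stood at 0.1 (adjusted p = 0.371) in sh-Lin41. Exons of Gss and Ggt7 overlap Acss2 on the opposite strand, so its counts may include their reads. As means of the 9 libraries, Gss had 25.4 CPM and Ggt7 had 0.588 CPM. Summed over these 4 genes, the level was 98.3% of control in sh-Pfkp and 79% in sh-Lin41. The sum is weighted to Fasn, which averaged 756 CPM in sh-Pfkp and 674 CPM in sh-ctrl, while Acly, Acaca and Acss2 fell in sh-Pfkp.

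The largest changes of the 32 genes in sh-Pfkp were those of the stearoyl-CoA desaturases, which place a double bond in saturated fatty acids. Scd2 had 477, 468 and 474 CPM in sh-Pfkp, 579.6, 601 and 595 CPM in sh-Lin41 and 841, 855 and 859.8 CPM in sh-ctrl. The 3 groups were far apart, with sh-Pfkp lowest, and the log2 fold change was -0.85 (SE 0.0185, adjusted p = 7.32e-27) in sh-Pfkp and -0.53 (SE 0.0181, adjusted p = 1.63e-21) in sh-Lin41. Scd1 had 101, 96.9 and 97.8 CPM in sh-Pfkp, 137, 135 and 134 CPM in sh-Lin41 and 159.6, 165 and 158 CPM in sh-ctrl. It was ordered in the same way, at -0.71 (SE 0.03, adjusted p = 3.44e-19) in sh-Pfkp and -0.25 (SE 0.0285, adjusted p = 8.67e-09) in sh-Lin41. Scd1 and Scd2 are close paralogs, and how the authors' counting split reads that fit both is not given.

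Fads1, a desaturase of polyunsaturated fatty acids, had 43.8, 44.2 and 45.1 CPM in sh-Pfkp, 56.5, 53.6 and 55.3 CPM in sh-Lin41 and 55.6, 56.8 and 54.7 CPM in sh-ctrl. The sh-Pfkp libraries lay below all others and those of sh-Lin41 overlapped control, with changes of -0.33 (SE 0.0433, adjusted p = 1.2e-07) in sh-Pfkp and -0.014 (95% interval -0.12 to 0.088) in sh-Lin41. Fads2, the desaturase that acts before it, fell in both, -0.32 (SE 0.0484) in sh-Pfkp and -0.36 (SE 0.0481) in sh-Lin41. Elovl6, which lengthens palmitate, was called in neither knockdown, with -0.039 (95% interval -0.092 to 0.013) in sh-Pfkp and 0.018 (95% interval -0.035 to 0.07) in sh-Lin41. With library totals only, its sh-Pfkp value was -0.087 and called (adjusted p = 0.00084).

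Levels per transcript length were compared with the authors' FPKM values (fragments scaled by transcript length and library size). As means of 3 libraries, in sh-ctrl they ran from 4.18 FPKM for Tm7sf2 to 159 FPKM for Scd2, with a median over the 32 genes of 24.3 FPKM. Scd2 led Acly in sh-ctrl (159 against 131 FPKM) and in sh-Lin41 (110.2 against 95.7 FPKM). In sh-Pfkp Acly led, with 110.3 FPKM against 84.8 FPKM for Scd2, and Fasn had 85.4 FPKM. Acss2 was lowest in sh-Pfkp at 2.85 FPKM and Hsd17b7 lowest in sh-Lin41 at 4.5 FPKM. The SREBP-2 gene stood above the SREBP-1 gene in every group, with Srebf2 at 37 FPKM and Srebf1 at 10.6 FPKM in sh-Pfkp, 37.2 and 12.2 FPKM in sh-Lin41, and 51.2 and 15 FPKM in sh-ctrl.

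**Figure D3:**
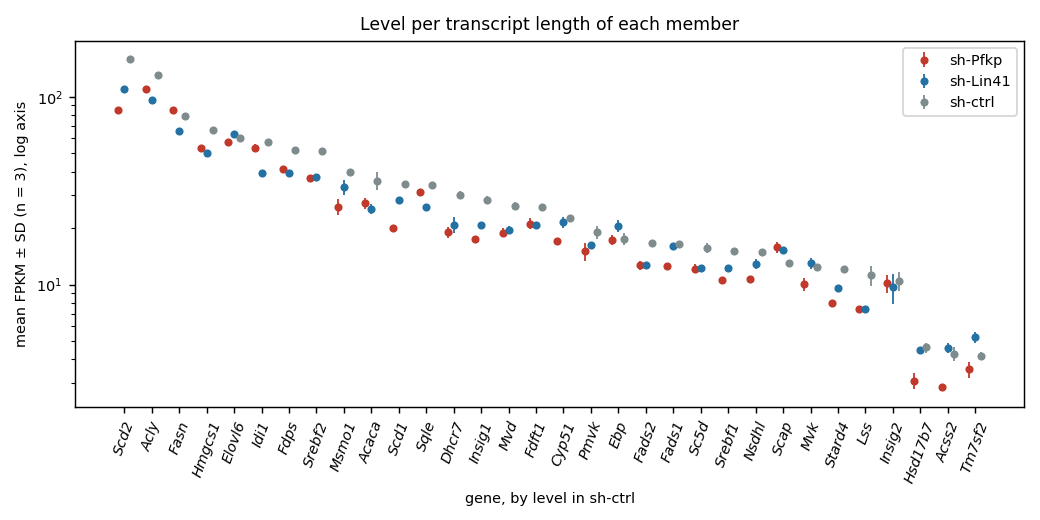
Mean FPKM (log axis) with SD (n = 3) of each gene in sh-Pfkp (red), sh-Lin41 (blue) and sh-ctrl (grey), ordered by the level in sh-ctrl. Grey points lie above both others for most genes; Scd2 is the highest in sh-ctrl and in sh-Lin41, and Acly in sh-Pfkp.

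A direct comparison called 23 of the 32 genes. In sh-Pfkp against sh-Lin41, 8 genes were higher and 15 lower, where 27.4% of all genes tested were called higher, 27.8% lower and 55.1% in either direction. The median log2 difference was -0.058 over the 32 genes and -0.013 over all genes. Higher in sh-Pfkp were Idi1 (0.48, SE 0.0313), Fasn (0.44, SE 0.0184), Sqle (0.31, SE 0.0349), Scap (0.24, SE 0.0528), Acly (0.23, SE 0.0218), Hmgcs1 (0.13, SE 0.0262), Fdps (0.11, SE 0.0415) and Acaca (0.11, SE 0.0271). On log2(FPKM + 1) the count of higher genes was 5, by limma-trend, without Scap (adjusted p = 0.474), Fdps (0.0606) and Acaca (0.341). Fdps was not called without sh-Pfkp replicate 1 (0.0522) or sh-Pfkp replicate 3 (0.07). With library totals only, neither Fdps (0.175) nor Acaca (0.051) was called.

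Lower in sh-Pfkp than in sh-Lin41 were 6 of the 11 genes from squalene to cholesterol and 4 of the 5 of desaturation and elongation. The largest differences were those of Acss2 (-0.65, SE 0.0955), Tm7sf2 (-0.61, SE 0.137), Hsd17b7 (-0.50, SE 0.0748), Scd1 (-0.46, SE 0.0301), Scd2 (-0.32, SE 0.0186), Mvk (-0.32, SE 0.0744) and Fads1 (-0.31, SE 0.0425). Cyp51 (-0.29), Msmo1 (-0.28), Nsdhl (-0.22), Ebp (-0.20), Insig1 (-0.20), Srebf1 (-0.15), Stard4 (-0.12) and Elovl6 (-0.057) completed the set. Some of these calls were lost when 1 library was left out. Without sh-Lin41 replicate 1 the adjusted p was 0.0551 for Ebp, 0.0576 for Srebf1 and 0.141 for Stard4. Stard4, whose groups overlapped, was also not called without sh-Pfkp replicate 1 (0.21), sh-Pfkp replicate 3 (0.0658) or sh-Lin41 replicate 3 (0.0929) or with DESeq2 (0.115). Elovl6 was not called without sh-Pfkp replicate 1 (0.129), sh-Pfkp replicate 2 (0.0547) or sh-Lin41 replicate 2 (0.155) or with DESeq2 (0.102) or RLE scaling (0.057).

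Between the knockdowns 9 genes were not called. Srebf2 differed by 0.025 (95% interval -0.036 to 0.085), Mvd by -0.0016 (-0.13 to 0.13), Lss by 0.043 (-0.081 to 0.17) and Dhcr7 by -0.076 (-0.20 to 0.046) on the log2 scale. With library totals only, Dhcr7 was called lower in sh-Pfkp (-0.12, adjusted p = 0.0383). The others were Fads2, Insig2, Pmvk, Sc5d and Fdft1, with differences between -0.058 for Sc5d and 0.072 for Fdft1.

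**Figure D4:**
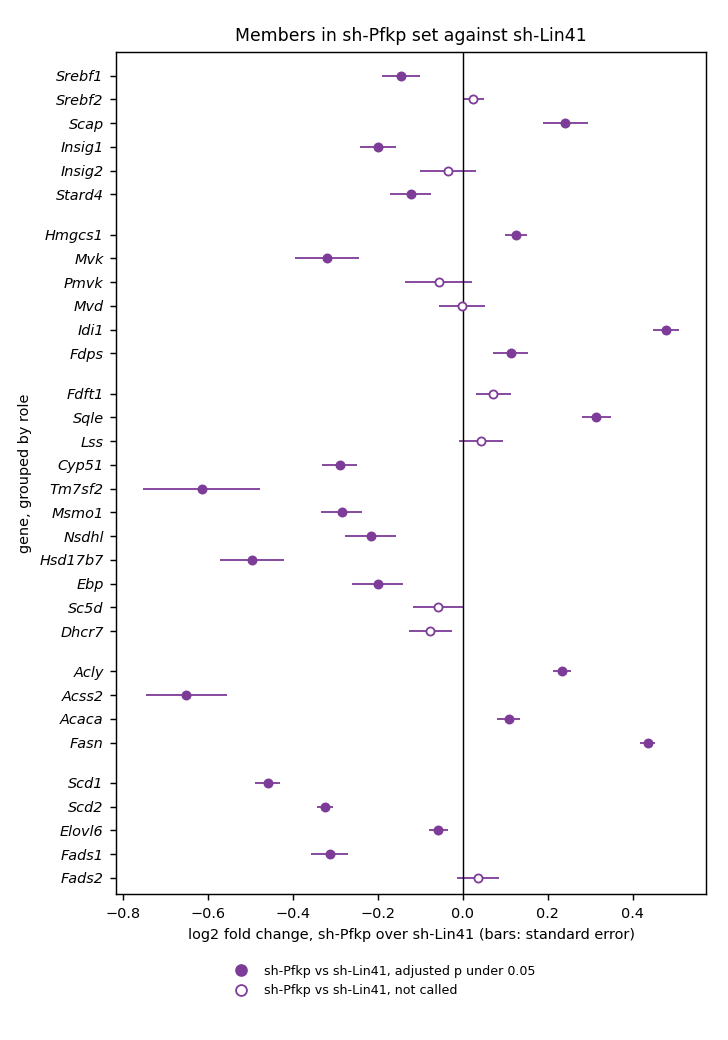
Log2 fold change of each gene in sh-Pfkp over sh-Lin41 with its standard error (n = 3 libraries per group); filled points had an edgeR adjusted p under 0.05. Idi1 and Fasn lie farthest to the right, and Acss2 and Tm7sf2 farthest to the left.

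Other genes of lipid metabolism were counted from 5 lists. These too were chosen with earlier results of these data known, so their counts beside all genes are descriptions and not tests. Of all genes tested, 28.3% were called higher and 28.3% lower in sh-Pfkp, and 26.9% higher and 27.3% lower in sh-Lin41. Of 12 genes of SREBP processing and turnover, 4 rose and 2 fell in sh-Pfkp, and 5 rose and 4 fell in sh-Lin41. Mbtps1, the Golgi protease that first cuts the SREBPs, rose (0.24, SE 0.0241 in sh-Pfkp and 0.10, SE 0.0242 in sh-Lin41), as did Fbxw7, which marks nuclear SREBP for degradation (0.30, SE 0.0505 in sh-Pfkp and 0.30, SE 0.0501 in sh-Lin41), and the endoplasmic reticulum protein gene Erlin2 (0.17, SE 0.0352 in sh-Pfkp and 0.36, SE 0.0344 in sh-Lin41). Of 14 tested genes of sterol uptake, export and storage, 7 fell and 4 rose in sh-Pfkp, and 5 fell and 5 rose in sh-Lin41. Soat1, which stores cholesterol as ester, fell in both (-0.78, SE 0.0492 in sh-Pfkp and -0.67, SE 0.0482 in sh-Lin41), and so did the lipoprotein receptor gene Scarb1 (-0.99, SE 0.0671 in sh-Pfkp and -0.32, SE 0.0615 in sh-Lin41). The oxysterol-binding protein gene Osbp rose (0.12, SE 0.0453 in sh-Pfkp and 0.75, SE 0.0421 in sh-Lin41).

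In the isoprenoid branch, which uses farnesyl diphosphate for other products, 3 of 9 genes rose and 1 fell in sh-Pfkp, and none rose and 3 fell in sh-Lin41. The shares over all genes tested were 28.3% in each direction in sh-Pfkp, and 26.9% higher and 27.3% lower in sh-Lin41. The farnesyltransferase subunit gene Fnta rose in sh-Pfkp (0.26, SE 0.0375) and fell in sh-Lin41 (-0.13, SE 0.0387), whereas Coq2, of coenzyme Q synthesis, fell in both (-0.35, SE 0.0933 in sh-Pfkp and -0.64, SE 0.0955 in sh-Lin41). Nus1, of dolichol synthesis, stood at 0.046 (SE 0.0334) in sh-Pfkp, not called, and fell in sh-Lin41 (-0.14, SE 0.0338). Among 18 other genes of lipid synthesis, 10 fell and 1 rose in sh-Pfkp, and 9 fell and 2 rose in sh-Lin41. The median log2 fold change of these 18 was -0.20 in sh-Pfkp and -0.12 in sh-Lin41. Lpin1, a phosphatidate phosphatase (-0.54, SE 0.0479 in sh-Pfkp and -0.35, SE 0.0464 in sh-Lin41), and Acsl3, an acyl-CoA synthetase (-0.33, SE 0.0349 in sh-Pfkp and -0.19, SE 0.0342 in sh-Lin41), fell. Pcyt1a, of phosphatidylcholine synthesis, rose (0.45, SE 0.0506 in sh-Pfkp and 0.41, SE 0.0504 in sh-Lin41).

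Genes of fatty acid oxidation, the opposing pathway, were called higher in 5 and lower in 4 of 14 cases in sh-Pfkp, and higher in 12 and lower in 1 of 14 in sh-Lin41. Their median log2 fold change was 0.064 in sh-Pfkp and 0.29 in sh-Lin41. Over all genes tested, 28.3% were called in each direction in sh-Pfkp, and 26.9% higher and 27.3% lower in sh-Lin41. Cpt1a, the gatekeeper of fatty acid entry into mitochondria, fell in sh-Pfkp (-0.16, SE 0.039) and rose in sh-Lin41 (0.35, SE 0.0368), and the direct difference was -0.52 (SE 0.037, adjusted p = 1.87e-13) by edgeR. The carnitine carrier gene Slc25a20 (0.72, SE 0.0628 in sh-Pfkp and 0.38, SE 0.0647 in sh-Lin41) and Etfdh, of the electron transfer chain (0.30, SE 0.0606 in sh-Pfkp and 0.59, SE 0.0583 in sh-Lin41), rose in both.

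**Figure D5:**
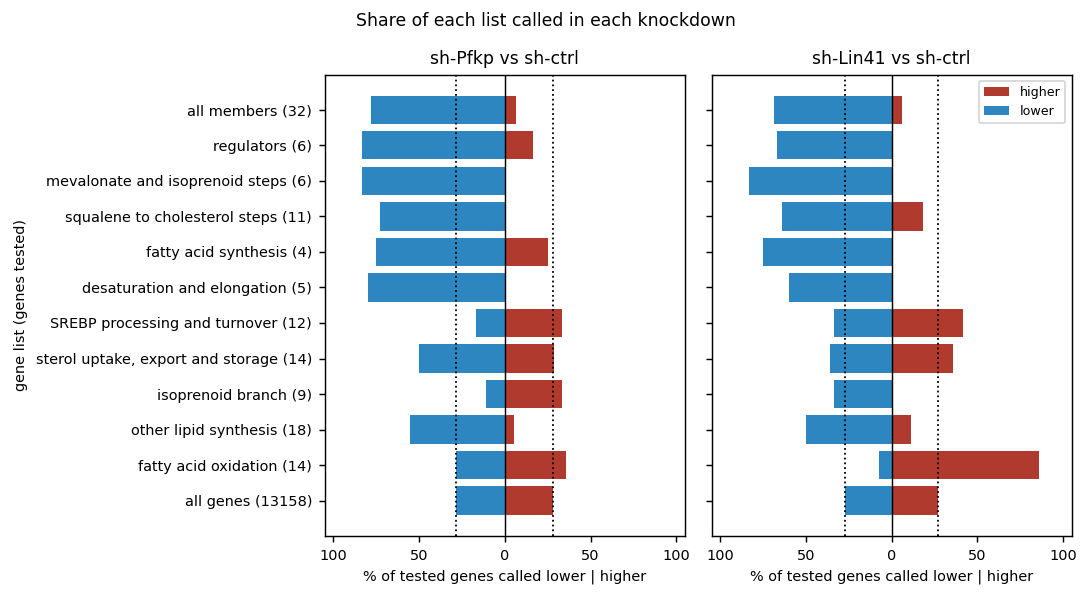
Share of the tested genes of each list (number in brackets) called lower (blue, to the left) or higher (red, to the right) at an edgeR adjusted p under 0.05 in sh-Pfkp and in sh-Lin41, each against sh-ctrl; dotted lines mark the share over all genes tested. The 32 genes and each of their 5 roles pass the left dotted line in both panels, as do other lipid synthesis (55.6% in sh-Pfkp, 50% in sh-Lin41) and sterol uptake, export and storage (50% in sh-Pfkp, 35.7% in sh-Lin41). Fatty acid oxidation passes the right line in both, at 35.7% in sh-Pfkp and 85.7% in sh-Lin41. So do SREBP processing and turnover (33.3% in sh-Pfkp, 41.7% in sh-Lin41) and sterol uptake, export and storage (28.6% in sh-Pfkp, 35.7% in sh-Lin41). The sh-Pfkp shares of these 2 lists are near the 28.3% over all genes, at 4 of 12 and 4 of 14 genes. In sh-Pfkp fatty acid oxidation also just passes the left line, at 28.6% against 28.3%. The isoprenoid branch passes the right line in sh-Pfkp (33.3%) and the left line in sh-Lin41 (33.3%). SREBP processing and turnover passes the left line too in sh-Lin41 (33.3%, against 27.3% over all genes).

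Other properties of the libraries moved with the knockdowns. They are counted below against all genes tested, of which 28.3% rose and 28.3% fell in sh-Pfkp, and 26.9% rose and 27.3% fell in sh-Lin41. Mitochondrially encoded transcripts rose in both, 12 of 13 in sh-Pfkp and 13 of 13 in sh-Lin41, with a summed level of 67855 to 70279.5 CPM in sh-Pfkp, 71098 to 73822 CPM in sh-Lin41 and 50796 to 52733 CPM in sh-ctrl. Of 13 stromal cell markers 11 were tested, of which 9 rose and 2 fell in sh-Pfkp, and 2 rose and 2 fell in sh-Lin41. Their summed level was 40.9 to 46.2 CPM in sh-Pfkp, 10.7 to 13.4 CPM in sh-Lin41 and 14.7 to 16.2 CPM in sh-ctrl, and Dcn, Lum and Postn had no counts in sh-Lin41 and sh-ctrl. Of the 10 pluripotent cell markers, 4 rose and 6 fell in sh-Pfkp, and 6 rose and 2 fell in sh-Lin41. The part of these in the results for the 32 genes was not tested.

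By the authors' deposited tables, a total of 25 among the 32 genes had a false discovery rate under 0.05 in sh-Pfkp and 21 in sh-Lin41. Of the 13158 genes tested here, 48.7% passed that rate in sh-Pfkp and 41.7% in sh-Lin41 by the authors' deposited tables. None of the 32 combined such a rate with a log2 FPKM ratio beyond 1 in either direction in the authors' deposited tables.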

How the data were processed

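Gene-level read counts, all whole, were deposited in 1 column for each library, per the file headers. As the submitters' processing notes name RSEM, rounding of estimated counts by the authors is possible. The notes also name fastp 0.18.0, Bowtie2 2.2.8, HISAT2 and StringTie 1.3.1. Not given in the sources used here are the authors' test, the strand setting, the annotation and the build of the genome. The deposited tables also hold FPKM values, a log2 ratio of mean FPKM and p-values with FDR, per the file headers. The library kit was NEBNext Ultra RNA, per the labels' protocols. Control columns were identical in both tables.

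All 9 libraries entered 1 fit with edgeR 4.0.16 in R 4.3.3 (filterByExpr by group, TMM scaling, quasi-likelihood test, Benjamini-Hochberg adjustment over 13158 genes, threshold 0.05, no minimum fold). The SE was computed as the absolute log2 fold change over the root of F, and 95% intervals use 6 residual degrees of freedom. The edgeR test also draws on spread shared across genes, so an interval can include 0 for a called gene. Gata4 in sh-Pfkp was such a case, with an interval of -1.04 to 0.0072 (edgeR adjusted p = 0.0399). Only the edgeR step was tested on simulated counts, for sh-Pfkp against sh-ctrl with 200 genes changed. In the data 7451 genes were called in this comparison, so the simulation does not cover a difference this broad. The 32 genes and the lists were chosen with earlier results of these data known. Values in every library are given for Srebf1, Srebf2, Scap, Insig1, Insig2 and, in each other role, for the 3 genes with the smallest adjusted p in either knockdown. Up to 3 called genes of each other list are named by the same measure. Alternatives were RLE scaling, library totals only, DESeq2 1.42.0, no count filter, the 6 libraries compared only, limma 3.58.1 (trend) on log2(FPKM + 1) and log2(FPKM + 0.1), the replicate number as a block, and each library left out.

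Over 8630 genes above 10 CPM, deviations from the group mean correlated between same-numbered libraries of sh-Pfkp and sh-ctrl (r of 0.108, 0.307 and 0.449). For unlike numbers in these groups r was up to 0.143, and sh-Pfkp replicate 2 had an r of 0.402 with sh-Lin41 replicate 3. As r of this size also arises without a shared number, it cannot show whether the numbers, which come from the labels, pair these libraries. The main fit used no pairing, so its SE, intervals and p-values ignore any that exists. The replicate number was a block in alternatives only. Replicate pairs had a median per-gene chi-square of 0.663 to 0.769, which is above that of counting noise alone, so none was merged. This cannot show whether the libraries stem from different cultures. The common coefficient of variation between replicates was low in the edgeR fit, at 0.0213.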

Additional observations from a re-analysis of the deposited data

How the results depend on the processing

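Falls among the 32 genes were counted again under each alternative, of which the 6-library fit with a replicate block was chosen after seeing the data. In sh-Pfkp 23 to 28 fell and 2 rose, and in sh-Lin41 21 or 22 fell. Genes that rose in sh-Lin41 numbered 2, but 1 with DESeq2, 1 with no count filter and 3 on log2(FPKM + 1) or log2(FPKM + 0.1), and 0 to 2 when single libraries were omitted (0 without sh-Lin41 replicate 1 or without sh-ctrl replicate 2). In sh-Pfkp against sh-Lin41, 8 were higher, but 5 on log2(FPKM + 1), 5 on log2(FPKM + 0.1), 6 with library totals only and 7 or 8 when single libraries were omitted. There 15 were lower, and 12 to 16 under the alternatives. With the replicate number as a block 25 fell and 2 rose in sh-Pfkp, and it changed no call of the 32 genes over all 9 libraries. Within 6 libraries it ended the call of Stard4 between the knockdowns (adjusted p = 0.0593). For sh-Lin41, libraries of the same number correlated with r from -0.314 to 0.0344 and were not taken as paired. No call reversed direction. Over all genes in sh-Pfkp, calls split into 2507 higher and 3802 lower on log2(FPKM + 1) and 2534 and 3848 on log2(FPKM + 0.1), against 3721 and 3730 on counts. On library totals only, all log2 fold changes in sh-Pfkp shifted by a median of -0.048. Causes were not tested. At 71 or more counts per gene and library, depth limits Tm7sf2 most.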
